A study of Drosophila melanogaster with 66 samples.

Results

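The cyclins were followed through polysome gradients of Drosophila melanogaster embryos. Members were chosen by name, as probe sets whose only gene symbol in the array annotation was 1 of 10 cyclin genes. This gave 8 probe sets for 8 genes, of 11982 genes named by single-symbol probe sets and 18769 probe sets that are not controls. The 8 are the mitotic cyclins CycB (probe set 1639876_a_at) and CycB3 (1626454_at), the G1 cyclins CycD (1627295_s_at) and CycE (1626249_s_at), and the transcriptional cyclins CycC (1630405_at), CycH (1640346_at), CycK (1634262_s_at) and CycT (1637897_at). CycG was not paired with a probe set in that annotation. Its probe set was named through the study's own gene lists, so its values are a description with no test. CycA was not analysed here. All 8 members had a mean gradient signal in the top 50% of probe sets in each period and so entered every test.

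Cyclins are regulatory subunits that switch on cyclin-dependent kinases, and each role in the family goes with its own kinase. CycB and CycB3 bind the mitotic kinase and are destroyed at each division through the anaphase-promoting complex, CycD and CycE drive the passage from G1 into S phase with Cdk4 and Cdk2, and CycC, CycH, CycK and CycT pair with Cdk8, Cdk7, Cdk12 and Cdk9 to act on RNA polymerase II. The early embryo divides as a syncytium on proteins and mRNAs laid down by the mother, with nuclear cycles that have no G1, and gap phases appear only after zygotic transcription starts. Maternal CycB mRNA is a textbook case of translational control in this embryo, since the PAN GU kinase promotes its translation and Nanos and Pumilio repress it in the pole cells.

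The embryos were of the Canton S strain, aged 0-2, 4-6 or 8-10 hours after egg laying, whole and with the chorion, the outer eggshell, removed. For the gradients they were soaked in cycloheximide, which holds ribosomes on mRNA, lysed, cleared of nuclei and debris by centrifugation and sedimented through sucrose, so only soluble RNA was measured there. Each period had 2 untreated gradients of 8 arrays (the pool of fractions 1-5 and each fraction from 6 to 12), 1 gradient lysed and run with EDTA, which strips ribosomes from mRNA (4 pools), and 2 arrays of unfractionated RNA. The labels call the repeats of a period biological replicates and give the embryo collections behind them no names, so p-values measure the spread between these samples. In whole embryos, fewer cells that hold an mRNA and less of it per cell cannot be told apart.

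The 66 arrays had median log2 signals between 4.55 and 5.13. The second unfractionated array and both untreated 1-5 pools of 0-2 hours had the lowest median correlations with the other arrays (0.841, 0.845 and 0.853), and the EDTA pool of fractions 6-7 at 8-10 hours had the highest array median (5.13) and the lowest spread. Stage markers followed the labels. The maternal mRNAs bcd and osk went from 10.74 and 12.44 at 0-2 hours to 6.81 and 7.19 at 4-6 hours, twi and sna stood highest at 4-6 hours (10.35 and 10.55), and the neuronal elav stood highest at 8-10 hours (11.29), while the neuronal nSyb stayed between 5.10 and 5.27. Mean levels of 9 eggshell and yolk protein genes lay between 3.61 and 5.67 throughout. The lowest cyclin in unfractionated RNA had means of 8.00, 7.41 and 6.98 in the periods, above the 95th percentile of 125 odorant and gustatory receptor probe sets (4.71, 4.62 and 4.39).

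The share of linear signal found in fractions 6-12, where polysomes sediment, was taken as ribosomal occupancy, and its ratio to the share in fractions 1-5, in natural log units, as the Logit. The 1-5 pool holds the average of its fractions and was counted 5 times. A flat profile would give an occupancy of 58.3%, and the receptor probe sets had median occupancies of 57.5%, 56.2% and 57.1%. Arrays were scaled to each other by RMA, so each value is relative to the rest of the mRNA in those fractions. Errors of means are SDs over n = 2 gradients or arrays, and an exact permutation test of 2 against 2 cannot go below p = 0.333, so tests come from limma fits over all 10358 probe sets of sufficient signal with Benjamini-Hochberg adjustment and a threshold of 0.05.

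In 0-2 hour embryos the cyclin mRNAs were spread over a wide range of ribosomal occupancy. CycC (89.6% ± 1.6, 97.5th percentile of the probe sets tested) and CycB3 (87.9% ± 5.2, 96.1st percentile) were mostly in fractions 6-12, and CycT was mostly outside them (38.2% ± 1.3, 11.0th percentile). Between them lay CycB (75.5% ± 3.0), CycE (71.6% ± 6.4), CycH (71.3% ± 5.9), CycK (56.9% ± 4.1) and CycD (50.6% ± 5.3). The separate gradients of neighbours in this order did not overlap for CycB3 and CycB, for CycH and CycK, or for CycD and CycT, and overlapped for the other neighbours. The range from the lowest to the highest mean was 51.5 percentage points.

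By 4-6 hours the same range was 20.1 points. The paper describes the occupancies of transcripts in general as more dispersed at 0-2 hours than later. CycC (74.5% ± 4.5), CycD (73.1% ± 1.0), CycK (72.3% ± 2.6), CycH (71.1% ± 2.5) and CycB3 (69.9% ± 0.8) overlapped with their neighbours, and CycB (64.1% ± 0.1), CycT (56.3% ± 2.0) and CycE (54.4% ± 4.7) lay lower. At 8-10 hours the range was 27.0 points, from CycT (52.0% ± 7.8) to CycC (79.0% ± 0.8). CycC then stood apart from the second in order, CycH (71.5% ± 1.0). The medians over the 8 cyclins were 71.4%, 70.5% and 63.9%, beside 58.6%, 61.0% and 61.3% over all probe sets tested.

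**Figure D1:**
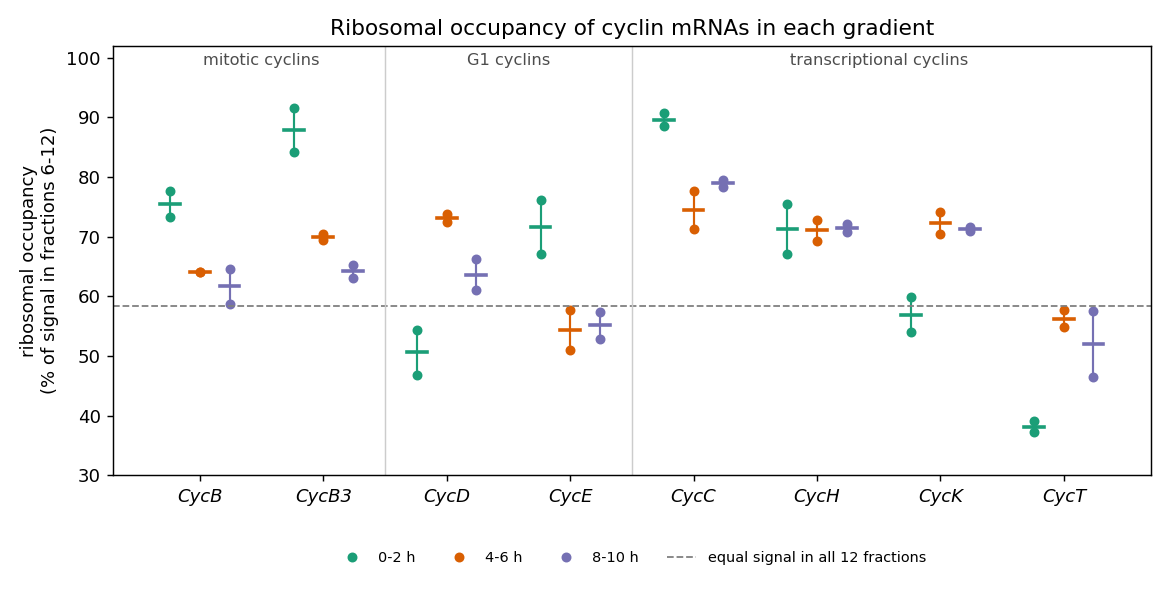
Ribosomal occupancy (vertical axis, % of linear signal in fractions 6-12) of the 8 cyclin mRNAs in each untreated gradient, with points for gradients, short bars for the mean of 2 and a dashed line at equal signal in all fractions (58.3%). CycB, CycB3, CycC and CycE were highest at 0-2 hours, CycD, CycK and CycT were lowest there, and CycH stayed near 71%.

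The mitotic cyclins both lost occupancy between 0-2 and 4-6 hours. CycB3, whose protein joins CycB in driving mitosis, had 91.6% and 84.2% of its signal in fractions 6-12 in the gradients of 0-2 hours, 70.4% and 69.4% at 4-6 hours and 63.1% and 65.3% at 8-10 hours. Its gradients of 0-2 hours lay above all later ones. The Logit of CycB3 fell by 1.19 to 4-6 hours (SE 0.21, limma adjusted p = 0.000261) and by 1.45 to 8-10 hours (SE 0.21, adjusted p = 4.3e-05), in the lowest 4.5% and 3.1% of all changes tested.

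CycB, the main B-type cyclin, went from 77.6% and 73.4% through 64.2% and 64.1% to 58.8% and 64.7%. Here too both gradients of 0-2 hours stood above the later ones, by a smaller step. Its Logit fell by 0.55 to 4-6 hours (SE 0.18, adjusted p = 0.0203) and by 0.65 to 8-10 hours (SE 0.18, adjusted p = 0.0068). The call at 4-6 hours was lost without the first gradient of 0-2 hours (-0.43) or either gradient of 4-6 hours (-0.55), and that at 8-10 hours without the first gradient of 0-2 hours (-0.53) or of 8-10 hours (-0.52).

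The G1 cyclins moved in opposite directions. CycE, which starts S phase with Cdk2 and is needed in every nuclear cycle, had 76.1% and 67.1% at 0-2 hours, 51.1% and 57.7% at 4-6 hours, and 57.3% and 52.9% at 8-10 hours. Its later gradients lay around the value of a flat profile and below both early ones. Its Logit fell by 0.76 to 4-6 hours (SE 0.20, adjusted p = 0.0045) and by 0.73 to 8-10 hours (SE 0.20, adjusted p = 0.00551). Without the first gradient of 0-2 hours neither passed (-0.54 and -0.51), nor did the first without the first gradient of 4-6 hours (-0.62).

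CycD, the Cdk4 partner that links growth to cell division, had 46.8% and 54.3% at 0-2 hours, 73.9% and 72.4% at 4-6 hours, and 61.1% and 66.2% at 8-10 hours. Its early gradients were the low ones and did not overlap the later ones. The Logit of CycD rose by 0.98 to 4-6 hours (SE 0.18, adjusted p = 0.000371) and by 0.54 to 8-10 hours (SE 0.18, adjusted p = 0.0224). The rise to 8-10 hours was lost without the first gradient of 0-2 hours (0.39) or the second of 8-10 hours (0.43).

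Among the transcriptional cyclins the Logit of CycC fell, those of CycK and CycT rose, and CycH gave no change past the threshold. CycC, subunit of the kinase module of Mediator, had 88.5% and 90.8% at 0-2 hours, 77.7% and 71.3% at 4-6 hours, and 79.6% and 78.4% at 8-10 hours. Both early gradients were above the later ones, and CycC remained the cyclin of highest mean occupancy in all 3 periods. Its Logit fell by 1.08 to 4-6 hours (SE 0.19, adjusted p = 0.000177) and by 0.84 to 8-10 hours (SE 0.19, adjusted p = 0.00134).

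CycK, which activates Cdk12 on elongating polymerase, had 54.0% and 59.8% at 0-2 hours, 74.1% and 70.5% at 4-6 hours, and 71.0% and 71.5% at 8-10 hours. Its Logit rose by 0.68 to 4-6 hours (SE 0.18, adjusted p = 0.00479) and by 0.63 to 8-10 hours (SE 0.18, adjusted p = 0.00753). Both rises were lost without the first gradient of 0-2 hours (0.56 and 0.51), and the first also without the first gradient of 4-6 hours (0.59).

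CycT, the cyclin of the elongation factor P-TEFb, had the lowest early values of the 8, 39.1% and 37.3%, then 57.7% and 54.9% at 4-6 hours and 46.5% and 57.5% at 8-10 hours. Its later gradients were all higher than the early ones, and those of 8-10 hours were far from each other. Its Logit rose by 0.74 to 4-6 hours (SE 0.19, adjusted p = 0.00431) and by 0.56 to 8-10 hours (SE 0.19, adjusted p = 0.0207). The rise to 4-6 hours was lost without the first gradient of 4-6 hours (0.68), and that to 8-10 hours without either gradient of 0-2 hours (0.60 and 0.53) or the second of 8-10 hours (0.34).

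CycH, part of the kinase that phosphorylates both the polymerase tail and the cell cycle kinases, had 67.1% and 75.4%, then 69.3% and 72.8%, then 70.8% and 72.1%. The gradients of all periods overlapped. Its Logit differed by -0.02 at 4-6 hours (SE 0.19, adjusted p = 0.956) and by 0.00 at 8-10 hours (SE 0.19, adjusted p = 0.996) from 0-2 hours.

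In all, 7 of 8 cyclins changed in Logit between 0-2 and 4-6 hours, 3 higher and 4 lower. Over all probe sets tested 46% passed in that comparison, 26.3% higher and 19.7% lower. From 0-2 to 8-10 hours, which shares the early gradients with it, 7 of 8 passed again (49.6% of all), with 3 higher (28.7% of all) and 4 lower (20.8%). The median Logit change over the 8 was -0.28 and -0.32 in these comparisons, beside -0.01 and 0.04 over all tested. From 4-6 to 8-10 hours 0 of 8 passed in limma, beside 6.26% of all. An unadjusted p under 0.05 was found for 1 of the 8, CycD (-0.44, SE 0.18, adjusted p = 0.199), and for 1899 of all 10358 probe sets. By role, the mitotic cyclins were lower in 2 of 2 cases from 0-2 to 4-6 hours, the G1 cyclins in 1 of 2, and the transcriptional cyclins in 1 of 4, with 2 of 4 higher. Where fractions 6 and 7 were counted as non-polysomal, 4 of 8 passed in each of the comparisons with 0-2 hours, and CycB and CycK were not among them in either. The share of all probe sets under that setting is not given here, so the lower count is not read as particular to the cyclins.

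The limits used in the study's methods call an mRNA preferentially translated where the Logit exceeds 1.5 and its 8 mean log2 values have an SD over 0.5, and preferentially untranslated where the Logit is under -0.15 with an SD under 1. The study's filter on release by EDTA was not applied here. At 0-2 hours CycB3 (Logit 2.03 of the mean profile) and CycC (2.16) were in the first class, which held 10.5% of all tested, and CycT (-0.48) was in the second, which held 17%. The paper itself names cyclin T, with cyclin G, among preferentially untranslated mRNAs. At 4-6 and 8-10 hours 0 of the 8 were in either class, with backgrounds of 5.69% and 5.01% for the first and 6.46% and 6.1% for the second. The cyclins nearest to the upper limit on its lower side were CycB at 0-2 hours (1.13) and CycC at 8-10 hours (1.31).

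**Figure D2:**
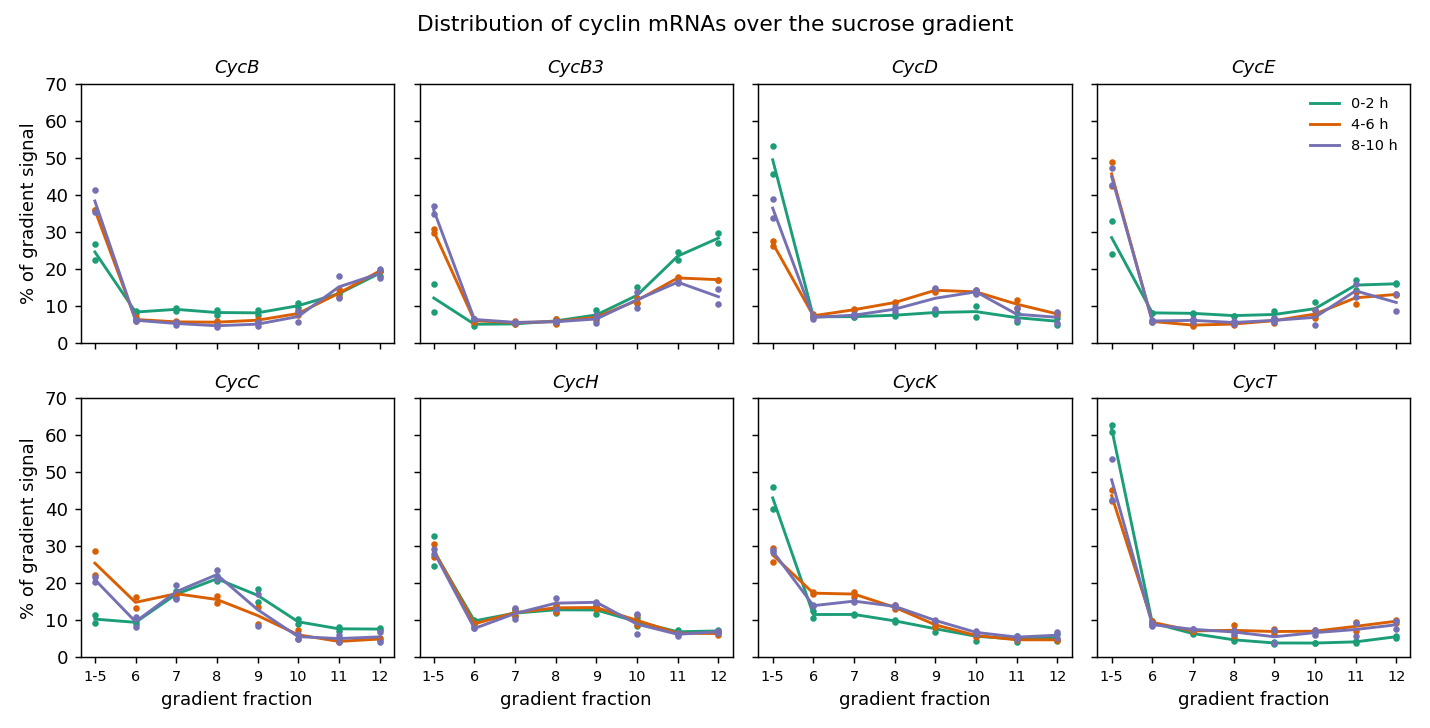
Share of each cyclin's linear signal (vertical axis, % of the gradient) in the pool of fractions 1-5, summed over its 5 fractions, and in fractions 6 to 12 (horizontal axis), with points for single gradients and lines for the mean of 2. Within fractions 6-12, CycB, CycB3 and CycE rise towards fractions 11 and 12, and CycK peaks in fractions 6 and 7. CycC, CycD and CycH peak in the middle of that range, with CycD nearly flat at 0-2 hours (highest mean share 8.4%).

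Within fractions 6-12 the cyclin mRNAs had different positions. An mRNA sediments further the more ribosomes it carries, and a longer coding region holds more of them. CycB, CycB3 and CycE had the highest shares in the heavy part of the polysomal range. Of their signal in fractions 6-12 at 0-2 hours, 55.6% ± 1.8, 73.4% ± 1.2 and 56.7% ± 1.6 lay in fractions 10-12, at the 85.4th, 99.1st and 86.7th percentile of all tested. CycC (27.9% ± 1.7) and CycK (28.0% ± 5.0) had the lowest such shares, CycH (33.3% ± 0.7) and CycT (35.9% ± 0.2) followed, and CycD had 41.1% ± 5.8. The highest share of a single polysomal fraction was 28.3% ± 1.9 for CycB3 in fraction 12 at 0-2 hours. CycC had its highest in fraction 8 at 0-2 and 8-10 hours (21.3% ± 1.0 and 22.4% ± 1.6) and in fraction 7 at 4-6 hours (17.2% ± 0.4). CycK had its highest at 4-6 hours, in fraction 7 of the first gradient (17.8%) and fraction 6 of the second (17.6%).

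With EDTA the share of the whole gradient in fractions 10-12, where a flat profile would give 25%, was lower for CycB, CycB3 and CycE than in both untreated gradients at 0-2 hours. It was 62.5% and 66.4% untreated against 24.5% with EDTA for CycB3, 41.8% and 42.2% against 25.3% for CycB, and 37.3% and 44.0% against 25.0% for CycE. Higher with EDTA than in both untreated gradients were CycT (13.3% and 14.1% against 24.2%) and CycK (13.2% and 18.9% against 24.8%). So were CycD (17.3% and 24.6% against 27.2%) and CycH (22.0% and 25.4% against 26.4%). CycC lay between its untreated gradients (23.6% and 26.4% against 24.9%). Every cyclin thus lay near the flat value with EDTA in this period. RMA scaling of the pools to each other by itself sets a typical mRNA near that value, so nothing is read from this. For CycE the EDTA gradient lay by the untreated ones at 4-6 hours (30.2% and 35.7% against 30.1%) and somewhat below them at 8-10 hours (29.8% and 33.6% against 27.5%). CycB and CycB3 lay below both untreated gradients with EDTA in the later periods too. CycC, CycH, CycK and CycT lay above both of theirs at 4-6 and at 8-10 hours. CycD lay below at 4-6 hours (31.4% and 32.5% against 28.9%) and above at 8-10 hours (27.7% and 28.9% against 33.0%). With 1 EDTA gradient per period these shares were not tested. How much of the signal in fractions 10-12 was on ribosomes was not resolved, in the later periods in particular for the cyclins other than CycB and CycB3.

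The natural logarithm of the share in fractions 10-12 over that in fractions 6-9 does not use fractions 1-5. CycB3 gave 0.97 and 1.06 at 0-2 hours, 0.57 and 0.74 at 4-6 hours, and 0.56 and 0.50 at 8-10 hours, with both early gradients above the rest. From 0-2 to 8-10 hours it fell by 0.49 (SE 0.13, adjusted p = 0.0318), the only call among the 8 where 21% of all passed, and CycB was at 0.44 (SE 0.14, adjusted p = 0.0545) and passed without the first gradient of 8-10 hours (0.53). The call for CycB3 was lost without either gradient of 0-2 hours (-0.53 and -0.44) or the second of 8-10 hours (-0.46). CycC passed without the second gradient of 8-10 hours (-0.53). From 0-2 to 4-6 hours 0 of 8 passed in limma (10.7% of all), with an unadjusted p under 0.05 for 5 of 8 and for 2614 of all 10358. From 4-6 to 8-10 hours 0 of 8 passed (3.21% of all), with such a p for 0 of 8 and for 1678 of all.

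mRNA abundance was read from the RMA log2 values of the unfractionated arrays, and a level is compared between periods for 1 probe set, not between genes. The mitotic cyclins went different ways. CycB was at 12.98 and 12.94 at 0-2 hours, 12.23 and 12.29 at 4-6 hours, and 11.97 and 12.06 at 8-10 hours, with no overlap between periods. It was lower by 1.63-fold at 4-6 hours (log2 -0.70, SE 0.13, limma adjusted p = 0.00704) and by a log2 difference of -0.95 at 8-10 hours (SE 0.13, adjusted p = 0.00217). The first call was lost without the first array of 4-6 hours (-0.67) and with arrays centred on their medians (-0.47).

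CycB3 was at 11.45 and 11.18, then 12.31 and 12.11, then 11.34 and 11.36, highest at 4-6 hours. Its signal rose by 0.89 from 0-2 to 4-6 hours (SE 0.16, adjusted p = 0.00647) and fell by 0.86 from 4-6 to 8-10 hours (SE 0.16, adjusted p = 0.0142). CycB3 at 8-10 hours differed by 0.03 from 0-2 hours (SE 0.16, adjusted p = 0.88). The rise was lost without the first array of 4-6 hours (0.79).

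CycD, of the G1 cyclins, was at 9.44 and 9.40 at 0-2 hours, 7.80 and 8.03 at 4-6 hours, and 8.66 and 8.55 at 8-10 hours. Both arrays of 4-6 hours were below the rest. Its signal fell by 1.5 (2.83-fold, SE 0.15, adjusted p = 0.000841) and then rose by 0.69 (SE 0.15, adjusted p = 0.0212), and at 8-10 hours stood 0.81 below 0-2 hours (log2 -0.81, SE 0.15, adjusted p = 0.00613, lost without the second array of 8-10 hours at -0.76). CycE was at 10.34 and 9.22, then 10.20 and 9.92, then 10.08 and 9.24. These replicates lay over 1 log2 unit apart at 0-2 hours and overlapped in all periods, and none of its 3 differences passed (0.28, -0.40 and -0.12, SE 0.45 each). With summed gradient signal CycE passed from 4-6 to 8-10 hours (-0.62, adjusted p = 0.0276) and from 0-2 to 8-10 hours (-0.67, adjusted p = 0.0135).

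CycC, of the transcriptional cyclins, was at 8.83 and 8.99, then 9.87 and 9.78, then 8.96 and 8.95, with the arrays of 4-6 hours above the rest. Its signal rose by 0.92 to 4-6 hours (SE 0.14, adjusted p = 0.00327) and fell by 0.87 after that (SE 0.14, adjusted p = 0.00827). CycC at 8-10 hours differed by 0.05 from 0-2 hours (SE 0.14, adjusted p = 0.783). It passed as a fall of -0.61 (limma adjusted p = 0.00427) where the signal summed over the gradients was taken in place of unfractionated RNA.

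CycH was at 9.84 and 9.89, then 9.48 and 9.61, then 8.72 and 8.87, in 3 groups that did not overlap. Its fall from 4-6 to 8-10 hours was 0.75 (SE 0.14, adjusted p = 0.0138) and that from 0-2 to 8-10 hours 1.07 (SE 0.14, adjusted p = 0.00185). CycK was at 9.29 and 9.75, then 9.23 and 9.38, then 9.63 and 9.68, with overlapping periods, and did not pass in any comparison, but did so from 0-2 to 4-6 hours without the first array of 0-2 hours (-0.44) and from 0-2 to 8-10 hours with summed gradient signal (0.53). CycT was at 8.51 and 7.50, then 7.40 and 7.43, then 7.23 and 6.74, in arrays that lay over 1 log2 unit apart at 0-2 hours. Its difference of -0.59 at 4-6 against 0-2 hours (SE 0.36, adjusted p = 0.233) passed without the second array of 0-2 hours (-1.10) and with summed gradient signal (-1.99). That of -1.02 at 8-10 against 0-2 hours had an SE of 0.36 and an adjusted p of 0.0611, and passed without the second array of 0-2 hours (-1.52), with summed gradient signal (-2.07), with centred arrays (-0.95) and with a replicate block (-1.02).

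**Figure D3:**
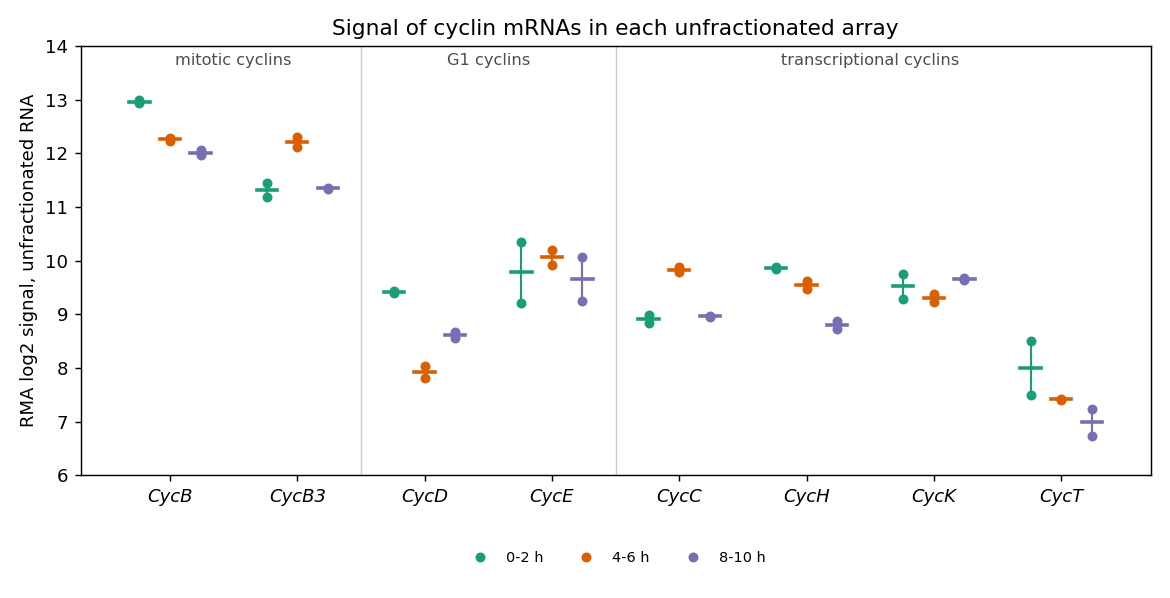
RMA log2 signal (vertical axis) of the 8 cyclin mRNAs on each unfractionated array, with points for arrays and short bars for the mean of 2. CycB steps down from 12.96 at 0-2 hours, CycB3 and CycC are highest and CycD lowest at 4-6 hours, and CycE and CycT have replicates over 1 log2 unit apart at 0-2 hours.

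In abundance, 2 of 8 cyclins rose and 2 fell from 0-2 to 4-6 hours, where 50.5% of all probe sets passed, 25.9% higher and 24.6% lower. From 4-6 to 8-10 hours 1 rose and 3 fell (30.3% of all passed, 16.2% higher and 14.1% lower). From 0-2 to 8-10 hours 3 of 8 fell and 0 rose (54.3% of all passed, 27.2% higher and 27.1% lower). Of the calls from 4-6 to 8-10 hours, those of CycB3, CycD and CycH were lost without any 1 of the 4 arrays (-0.96 to -0.76, 0.58 to 0.80 and -0.83 to -0.68), and that of CycC without any but the second of 4-6 hours (-0.87 to -0.82). Abundance and Logit both changed from 0-2 to 4-6 hours for 4 cyclins, and in 3 of them, CycB3, CycC and CycD, the directions were opposite. Over all tested, 3089 probe sets changed in both and 74.8% of them in opposite directions, so the count for the cyclins is near that of other genes. CycB fell in both.

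**Figure D4:**
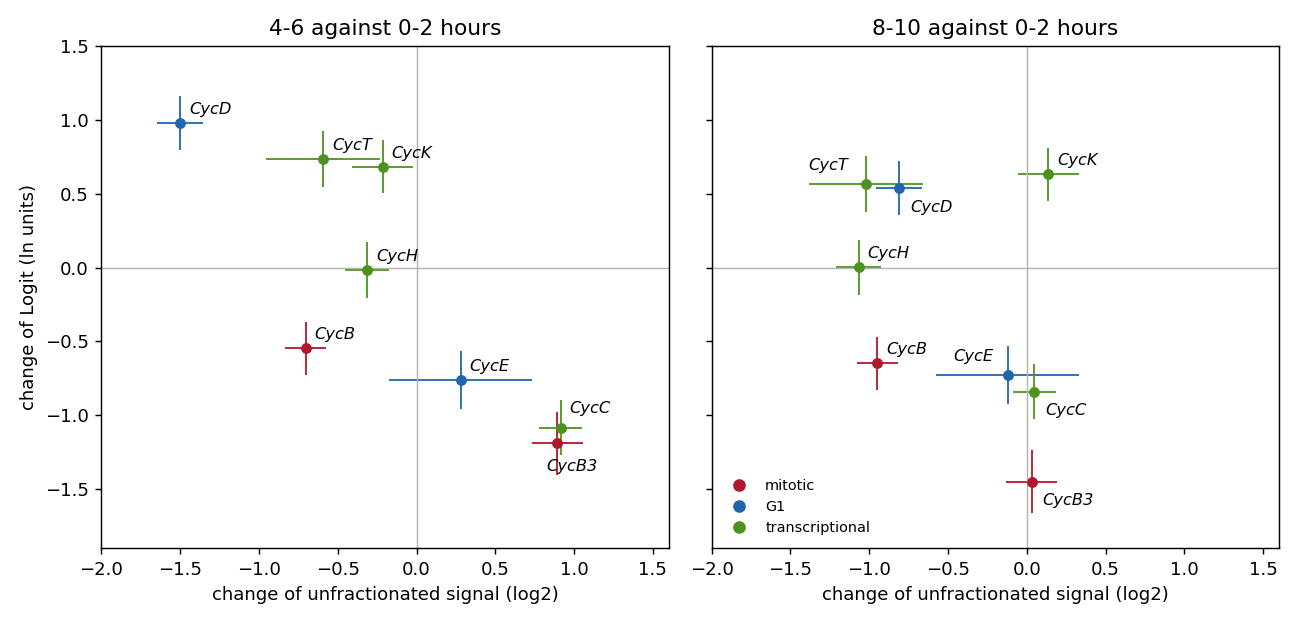
Change of unfractionated signal (horizontal axis, log2) against change of Logit (vertical axis, natural log units) for the 8 cyclins from 0-2 to 4-6 hours (left) and from 0-2 to 8-10 hours (right), with bars for the SE of each fit and colours for the role. At 4-6 hours CycD lies at the upper left (-1.5 and 0.98), and CycB3 and CycC at the lower right (0.89 and -1.19, 0.92 and -1.08).

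EDTA takes ribosomes off mRNA, so an mRNA carried by ribosomes moves into fractions 1-5. RMA scaling largely removes a move that most mRNAs share, so what shows is a move beyond that of the rest. The median EDTA effect over all tested was -0.03, 0.06 and 0.06 in the periods. There was 1 EDTA gradient per period, which the fit assumes to vary as the untreated pairs do, and the untreated 1-5 pools are also part of the Logit. CycB3 moved most. Its log2 signal in fractions 1-5 at 0-2 hours was 8.77 and 9.07 untreated and 11.88 with EDTA, a difference of 2.95 (SE 0.29, adjusted p = 0.00171) that lay at the 99.8th percentile of all tested. At 4-6 hours it was 11.02 and 11.06 against 12.41 (difference 1.37, SE 0.29, adjusted p = 0.014), and at 8-10 hours 10.38 and 10.79 against 11.98 (1.40, SE 0.29, adjusted p = 0.0144).

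CycC was at 7.56 and 7.39 against 8.94 with EDTA at 0-2 hours (1.47, SE 0.28, adjusted p = 0.015) and at 7.90 in both gradients against 8.94 at 8-10 hours (1.04, SE 0.28, adjusted p = 0.0351). CycB was at 11.68 and 11.74 against 12.78 at 0-2 hours (1.07, SE 0.25, adjusted p = 0.0314). In each of these the EDTA value lay above both untreated ones. The call for CycB was lost with arrays centred on their medians (0.85) and without either gradient of 0-2 hours (1.04 and 1.10) or of 4-6 hours (1.07 each), that for CycC at 0-2 hours without either gradient of 0-2 hours (1.55 and 1.38), and that for CycC at 8-10 hours with centred arrays (0.80) and without any 1 of the 6 untreated gradients (1.04 each). The call for CycB3 at 4-6 hours was lost without either gradient of that period (1.35 and 1.38).

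CycD, CycE, CycH, CycK and CycT did not pass in any period. Given the scaling, this does not tell whether they were on ribosomes. At 0-2 hours CycD was at 10.06 and 9.62 against 9.81 with EDTA, and CycT at 10.11 and 10.03 against 9.79. EDTA raised 3 of the 8 at 0-2 hours, 1 at 4-6 hours and 2 at 8-10 hours, and lowered 0. Over all tested 8.69%, 16.4% and 16.2% passed, 6.33%, 12.9% and 12.6% higher and 2.36%, 3.49% and 3.52% lower. Of all calls 72.9%, 78.7% and 78.2% were higher with EDTA as deposited, and 42.4%, 49.3% and 52.1% with arrays centred on their median over the probe sets tested, which was 0.22, 0.29 and 0.24 higher with EDTA. The difference of the EDTA effect between periods passed for 0 of 8 cyclins in limma in each of 3 comparisons (0%, 0.0193% and 0.0676% of all), with an unadjusted p under 0.05 for 2, 0 and 1 of the 8 and for 1801, 661 and 2045 of all probe sets. For CycB3 it was -1.59 from 0-2 to 4-6 hours (SE 0.41, adjusted p = 0.101).

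**Figure D5:**
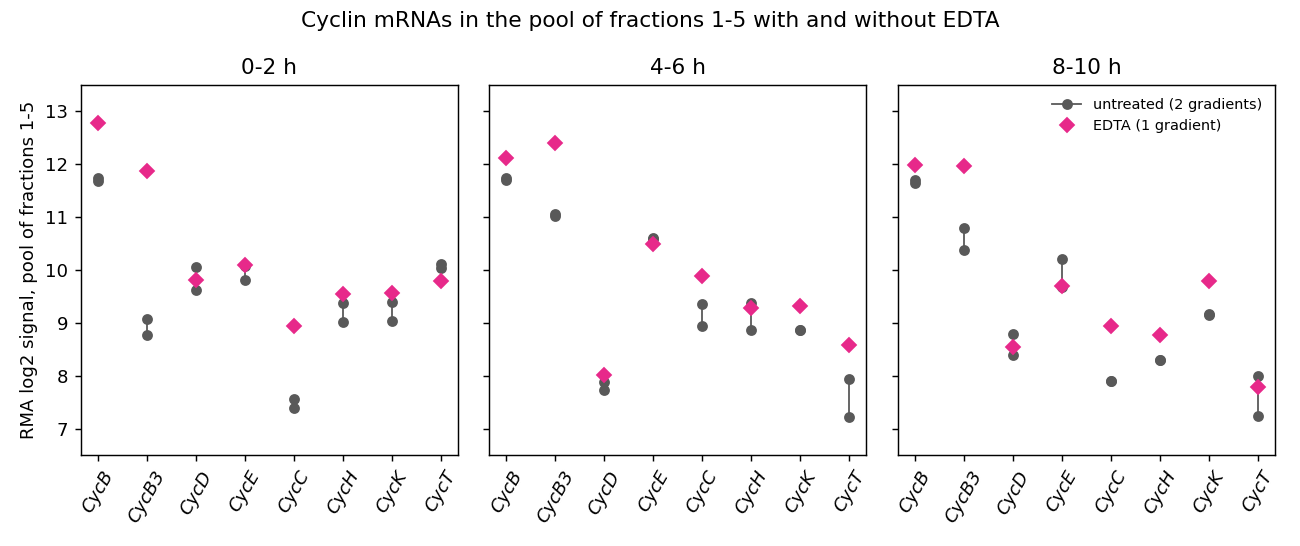
RMA log2 signal in the pool of fractions 1-5 (vertical axis) of the 8 cyclins in the 2 untreated gradients (circles joined by a line) and the EDTA gradient (diamonds) of each period. CycB3 rises from 8.77 and 9.07 to 11.88 at 0-2 hours, and CycD, CycE and CycT stay near their untreated values there.

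CycG, a non-canonical cyclin outside these roles, was in the light part of the gradient in every period. Its occupancy was 49.2% and 34.0% at 0-2 hours, 39.0% and 38.0% at 4-6 hours, and 35.6% and 39.8% at 8-10 hours. Its mean profiles met the limits of the untranslated class in all 3 periods, and the first gradient of 0-2 hours alone did not. Its unfractionated signal was 8.79 and 7.96, then 10.06 and 10.72, then 11.21 and 10.89, higher in every later array than at 0-2 hours. The gradients did not show that rise at 4-6 hours. In the pool of fractions 1-5, which held most of its gradient signal, CycG was at 11.56 and 11.97, then 11.29 and 11.76, then 12.51 and 12.09. Its probe set was named through lists of mRNAs that the study chose for such profiles on these arrays, so nothing is read from its place in the class.

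The genes whose gradient profiles were nearest to those of CycB, CycB3 and CycE were taken over 8011 genes, by the mean absolute difference of 24 mean shares (8 pools in 3 periods). For CycB they were ry (0.874 percentage points), CG8468 (1.04) and Klp10A (1.14), for CycB3 FLASH (1.35), CG12084 (1.36) and Tnks (1.38), and for CycE mid (1.00), lmd (1.03) and CG33298 (1.08). Among the cyclins, CycB and CycE were the nearest pair (2.10 points), then CycH and CycK (3.27) and CycB and CycB3 (3.33), and CycB3 and CycC were the farthest (9.60).

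The kinases that pair with the cyclins were read in the same fits. The Logit of Cdk8, the partner of CycC, rose from 0-2 to 4-6 hours (68.1% ± 3.3 to 87.5% ± 0.7 in occupancy, Logit 1.19, SE 0.18, adjusted p = 4.83e-05), the opposite direction to CycC. Cdk7, the partner of CycH, passed from 0-2 to 8-10 hours (0.49, SE 0.17, adjusted p = 0.0246). Cdk2, Cdk4, Cdk9 and Cdk12, which pair with CycE, CycD, CycT and CycK, did not pass in Logit in any comparison, with occupancies at 0-2 hours of 61.4% ± 2.6, 53.2% ± 6.4, 50.5% ± 1.5 and 73.1% ± 0.2. Cdk1 was not analysed here.

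In abundance, Cdk4 differed by -0.33 from 0-2 to 4-6 hours (SE 0.13, adjusted p = 0.0813), where CycD fell, and rose by 1.13 from 4-6 to 8-10 hours (SE 0.13, adjusted p = 0.00332), where CycD rose. At 8-10 hours Cdk4 stood 0.80 above 0-2 hours (adjusted p = 0.00379) and CycD below it. Cdk8 differed by 0.38 to 4-6 hours (SE 0.14, adjusted p = 0.0771), where CycC rose, and then fell by 1.74 (SE 0.14, adjusted p = 0.00152), where CycC also fell. Over the whole span Cdk8 fell by 1.36 (adjusted p = 0.000852) and CycC differed by 0.05. Cdk7 fell by 1.11 to 4-6 hours (SE 0.25, adjusted p = 0.0141) and differed by -0.18 after that (adjusted p = 0.618), whereas CycH differed by -0.32 to 4-6 hours (SE 0.14, adjusted p = 0.118) and fell later. Cdk9 rose by 0.59 to 4-6 hours (SE 0.14, adjusted p = 0.015) and then fell by 0.82 (SE 0.14, adjusted p = 0.00948). Cdk2 fell by 0.86 from 0-2 to 8-10 hours (SE 0.21, adjusted p = 0.0176).

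A list of 49 partners and regulators of the cyclins had 41 genes that were tested. From 0-2 to 4-6 hours 19 of the 41 rose in Logit and 5 fell (26.3% and 19.7% of all), with a median of 0.38 beside -0.01 over all tested. Of those that rose, APC7 and twe had unfractionated means of 5.00 and 5.10 at 4-6 hours, near the receptors' 95th percentile (4.62). Their occupancies there were 52.5% ± 3.3 and 78.7% ± 4.5, beside a median of 56.2% for the receptors. The largest rises that passed were those of ida (2.44), a subunit of the anaphase-promoting complex, Rbf2 (2.01), a retinoblastoma-family repressor of E2F targets, and rux (1.86), an inhibitor of the mitotic cyclin kinase. The largest falls that passed were those of gwl (-1.80), the Greatwall kinase, and of Cul1 (-1.33) and SkpA (-1.21), subunits of the ubiquitin ligase that degrades CycE. From 4-6 to 8-10 hours 1 rose and 4 fell (6.26% of all passed in either direction), and from 0-2 to 8-10 hours 16 rose and 5 fell (28.7% and 20.8% of all).

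In abundance 8 of the 41 rose and 14 fell from 0-2 to 4-6 hours (25.9% and 24.6% of all), and 8 rose and 21 fell from 0-2 to 8-10 hours (27.2% and 27.1% of all), with medians of -0.33 and -0.81 beside 0.10 and -0.05 over all tested. Beside CycJ, the largest falls that passed to 4-6 hours were those of gnu, the activator of PAN GU (from a mean of 11.86 to 6.88), APC7, also of the anaphase-promoting complex (9.95 to 5.00), and twe, the meiotic Cdc25 phosphatase (9.50 to 5.10). Their order was not resolved, since APC7 and twe each had 1 array of 4-6 hours (4.45 and 4.61) under the receptors' 95th percentile. Among the rises that passed, the largest were those of ago (2.24), the F-box protein that binds CycE, fzy (2.03), the activator of the anaphase-promoting complex that targets mitotic cyclins, and kto (1.52), a Mediator kinase module subunit beside CycC.

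Of the further cyclins, CycJ was abundant only at 0-2 hours (8.52 and 9.03), and at 3.80 and 4.05 at 4-6 hours and 4.02 and 4.06 at 8-10 hours it lay under the receptors' 95th percentile. Its occupancy was 26.4% ± 0.8 at 0-2 hours, lower than that of any of the 8 cyclins. The later 54.8% ± 1.2 and 51.6% ± 2.4 come from signal near background, where receptors had 56.2% and 57.1%. CycY, which pairs with the kinase Eip63E, rose by 1.15 in abundance to 4-6 hours (SE 0.33, adjusted p = 0.0339), and its Logit gave no change past the threshold (0.23, SE 0.17, adjusted p = 0.315).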

How the data were processed

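The authors deposited RMA log2 values (background correction, quantile normalization and probe summary) of 66 Affymetrix Drosophila Genome 2.0 arrays, and all were used. Per the methods, equal volumes of RNA of each fraction were labelled. RMA scaling removes any difference in total mRNA from fraction to fraction. Of 18769 probe sets that are not controls, 13647 have 1 symbol in the platform annotation, 402 several and 4720 none. Samples were grouped by their titles. Tests used limma 3.58.1 in R 4.3.3 on 6 Logits, 6 unfractionated arrays, or 9 arrays of fractions 1-5, for 10358 probe sets in the top 50% of mean gradient signal in at least 1 period. Scripts were tested on simulated data. The number of arrays limits the precision.

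The members, roles, partner list and tests were chosen with earlier results of these data known. All members are named, with the 3 nearest profiles of CycB, CycB3 and CycE, the partner kinases, CycJ and CycY, and up to 3 partners with the largest rise or fall in a comparison. Alternatives changed the pool weight, polysomal limit, background, filter, spread, centring, block and replicates. Abundance from summed gradient signal was added after seeing the data.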

Additional observations from a re-analysis of the deposited data

How the results depend on the processing

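The number of arrays per period sets the limit on all calls, and receptor probe sets, near background, had occupancies close to that of a flat profile. Counts of called cyclins moved under these alternatives. With fractions 6 and 7 counted as non-polysomal, 4 of 8 rather than 7 passed in Logit from 0-2 to 4-6 hours and 4 rather than 7 from 0-2 to 8-10 hours. With abundance from summed gradient signal, an alternative chosen after seeing the data, 7 rather than 3 passed from 0-2 to 8-10 hours, and CycC reversed to -0.61. For heavy against light polysomes from 0-2 to 8-10 hours the count of 1 became 2 without a filter, 2 with a replicate block, 0 with fractions 10-12 over 8-9, and 0 with the 5th percentile subtracted. With fractions 11-12 over 6-10 CycB passed (0.50) and CycB3 did not (-0.57). With centred arrays the EDTA effect at 8-10 hours was called for 1 rather than 2. Counting the pool of fractions 1-5 once gave 5 cyclins in the translated class in each period and 0 in the untranslated class at 0-2 hours. Counting fractions 6 and 7 as non-polysomal gave 0 in the translated class at 0-2 hours and 3, 4 and 3 in the untranslated class over the periods. Both of these settings shift the Logit of every probe set. The share of all probe sets called or classed under the alternatives in this paragraph is not given, so these counts are not read as particular to the cyclins. The cause of these moves was not tested, beyond what each alternative changes by construction.

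Leaving out 1 gradient or array at a time, counts of called cyclins ran from 3 to 7 for the Logit from 0-2 to 4-6 hours, from 2 to 7 from 0-2 to 8-10 hours, and from 0 to 0 from 4-6 to 8-10 hours. The lowest came without the first gradient of 4-6 hours and without the first of 0-2 hours. For abundance they ran from 2 to 5 (0-2 to 4-6 hours), 0 to 4 (4-6 to 8-10 hours) and 2 to 4 (0-2 to 8-10 hours), for heavy against light polysomes from 0 to 2 from 0-2 to 8-10 hours, and for the EDTA effect from 1 to 3, 0 to 1 and 1 to 1 over the periods. The classes kept their counts.

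The replicate numbers are shared between periods in the labels, with nothing that ties equal numbers to a shared collection. Deviations of equal numbers correlated across probe sets with r of -0.04, -0.09 and -0.29 for the Logit, 0.15, 0.58 and 0.25 for unfractionated RNA and -0.27, 0.45 and -0.26 for heavy against light polysomes. With the replicate number as a block 7, 0 and 7 cyclins passed in Logit and CycT passed in abundance from 0-2 to 8-10 hours. Of single cyclins, 967 values under an alternative kept direction and side of the threshold, 67 lost the call, 15 gained one, and 54 changed sign without a call on either side.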
